A study of Mus musculus with 40 samples.

Results

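The mouse genes named Zfp and a number encode zinc finger proteins, and 374 of the 53465 gene identifiers in the count table had such a name. The 222 of them with a mean of at least 5 CPM (the count over the library total, times 1000000) over all 8 RNA-seq libraries are described here. The members were thus chosen by their measured level, selected on the mean CPM over all 8 libraries. This rule used no difference between groups, but the members were chosen with earlier results of these data known. A member could also enter through groups where it was higher. Most of these proteins carry arrays of C2H2 fingers, in which a zinc ion held by cysteines and histidines shapes a small module that reads a few bases of DNA. A large class joins such an array to a KRAB domain, which recruits the corepressor TRIM28 and with it histone H3K9 methylation, and KRAB genes lie in clusters that grew by gene duplication and silence many mobile elements. The name also covers proteins with other work, such as RNA decay, ubiquitin ligation, spindle assembly or binding of actin.

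The libraries came from mouse bladder urothelial cells, the epithelium that lines the bladder, grown as organoids in a medium that held for all groups B27, EGF, Noggin, R-spondin, N-acetylcysteine, the ROCK inhibitor Y-27632 and the TGF-β receptor inhibitor A83-01. There were 4 groups of 2 libraries each. They were dKO cells with MI-503, dKO cells with the solvent DMSO, WT cells with MI-503 and WT cells with DMSO. The dKO cells are labelled as double knockouts of Kmt2c and Kmt2d, which encode the H3K4 methyltransferases of enhancers, and WT cells as wild type, and these names stand below for libraries so labelled. MI-503 at 1 µM for 4 days blocks the binding of menin to the methyltransferase KMT2A. The labels used here do not give the deleted exons, the promoter of any Cre, the sex, or whether the 2 libraries of a group came from separate cultures or lines, so p-values measure only the spread between these libraries. The other 32 of the 40 samples of the series were not analysed here.

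Library totals ran from 58113705 to 68571176 counts, and the members took between 0.576% and 0.715% of them. On the TMM scale explained below, Kmt2c had 26.6 and 29.8 CPM in dKO MI-503 and 55.2 and 52.3 CPM in dKO DMSO, against 60.3 and 61.6 CPM in WT MI-503 and 110.2 and 111 CPM in WT DMSO libraries. Kmt2d was higher in dKO than in WT cells, both in DMSO (log2 change 0.43) and in MI-503 (0.43), so the count over the whole gene does not show its loss, which a deletion of single exons need not lower. The 16 urothelial markers summed to between 1.69% and 1.91% of counts in dKO libraries and to between 0.71% and 1.14% in WT libraries. Krt5 alone had 9440 to 11600 CPM by library total in dKO and 3400 to 7750 CPM in WT libraries. Trp63 and Gata3 were also higher in dKO under each treatment. Epcam was lower in dKO than in WT with MI-503 (323 and 325 against 357 and 369 CPM) but higher with DMSO. Among markers of umbrella cells, Upk2 was at most 0.133 CPM in every library, while Upk1b had 98.5 to 150 CPM. Krt20 had 7.0 to 11.8 CPM in dKO and 0.233 to 0.522 CPM in WT libraries. Upk3a had 2.15 to 2.72 CPM in dKO and 0.147 to 1.92 CPM in WT libraries. Summed immune and endothelial markers stayed under 0.27 CPM in every library. The 8 markers of fibroblasts and smooth muscle summed to 16.1 and 17.0 CPM in dKO MI-503, 5.17 and 5.55 CPM in dKO DMSO, 44.5 and 42.1 CPM in WT MI-503 and 4.01 and 4.98 CPM in WT DMSO libraries, with Col1a2 and Dcn at 0 throughout. Both WT DMSO libraries stood apart from the other 6 in genes of endoplasmic reticulum chaperones: 15 of them took 3.68% and 3.95% of counts there and between 0.42% and 0.547% in the others. The part of these marker and chaperone levels in the results below was not tested. The comparisons that make no use of the WT DMSO libraries are MI-503 against DMSO in dKO and dKO against WT in MI-503. In bulk libraries, fewer cells of a type and less RNA per cell cannot be told apart.

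Mean levels of the members ran from 5.08 to 308 CPM, with a median of 16.9 CPM. All 222 passed the filter on low counts, and 38 of them had a mean under 5 CPM in at least 1 group, so a member of that kind entered through groups where it was higher. Just above the limit stood Zfp931, Zfp422 and Zfp870, with means of 5.08, 5.08 and 5.11 CPM. Just below it stood Zfp949, Zfp184 and Zfp213, with 4.95, 4.92 and 4.83 CPM. From the group where it was highest to the group where it was lowest, the typical member differed by 1.7-fold (median of the ratio of group means), 64 members differed by over 2-fold and 13 by over 4-fold. The range of these ratios ran from 1.09 for Zfp865 to 40.7 for Zfp185. The coefficient of variation between the libraries of a group had a median over the members of 5.43% in dKO MI-503, 5.18% in dKO DMSO, 3.21% in WT MI-503 and 3.53% in WT DMSO. A member was most often highest in WT DMSO (83 members) or dKO DMSO (62) and most often lowest in WT MI-503 (83). The fold ranges and this ranking have no share over all genes beside them, so whether they are particular to the members was not tested. CPM are scaled below by TMM, a factor per library that sets the bulk of genes equal. On that scale the members together had 5866 and 6005 CPM in dKO MI-503, 6861 and 6624 CPM in dKO DMSO, 5714 and 5723 CPM in WT MI-503 and 7311 and 7376 CPM in WT DMSO libraries. The sum was thus lower in both MI-503 groups than in the DMSO group of the same genotype. By the share of all counts, dKO DMSO stood above WT DMSO (0.715% and 0.697%, against 0.655% and 0.658%), so the order of those 2 groups depends on the scaling.

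Two-sided edgeR quasi-likelihood tests, adjusted over the 16921 genes tested and called at an adjusted p under 0.05, left 8 members (3.6%) with no call in any of the 4 pairwise comparisons (Zfp120, Zfp296, Zfp420, Zfp472, Zfp748, Zfp865, Zfp870 and Zfp952) and gave 52 (23.4%) a call in all 4. Of these 8, Zfp870 was called higher in dKO against WT in DMSO with RLE size factors (adjusted p = 0.0442), library size alone (0.00272) or no filter on low counts (0.0123). Calls were common among other genes too: of all tested genes 12.9% had no call and 25.6% had 4, and of the 10141 tested genes with a mean of at least 5 CPM 1.97% had no call and 36.2% had 4. The counts of members called in each comparison are therefore given beside the shares of both sets called in the same direction. These counts are descriptions and were not tested against each other.

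**Figure D1:**
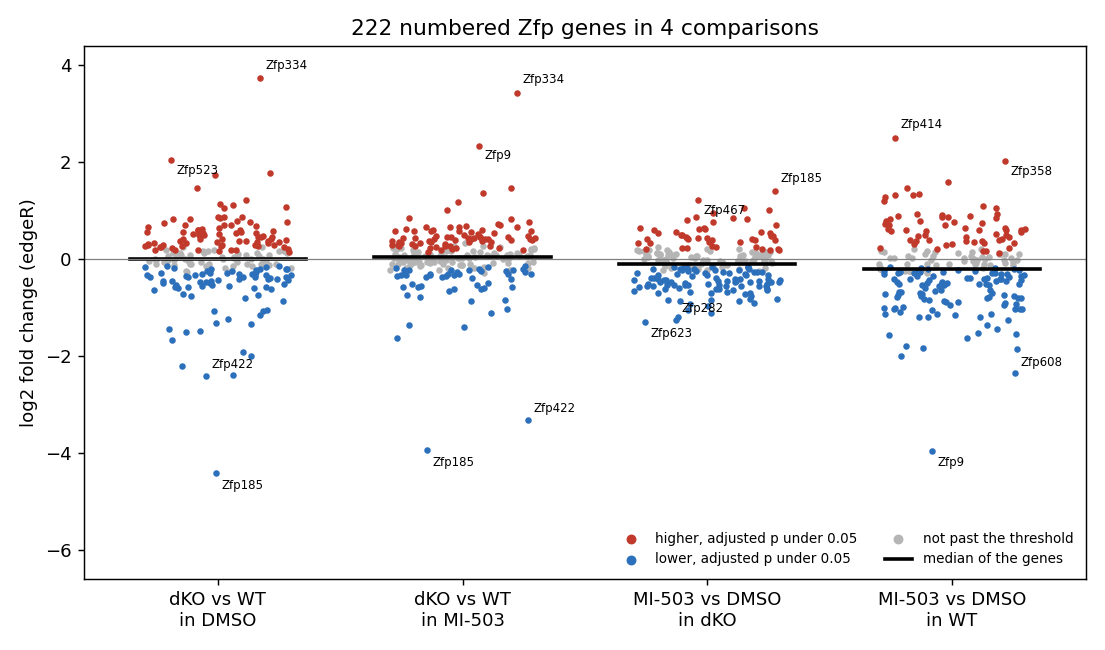
Log2 fold change (edgeR) of the 222 numbered Zfp genes in 4 comparisons, 1 point per gene, coloured by the call, with a black bar at the median. The medians were 0.005 for dKO against WT in DMSO, 0.048 for the same in MI-503, -0.094 for MI-503 in dKO and -0.20 for MI-503 in WT.

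In DMSO, dKO and WT cells differed in both directions. In dKO against WT cells, 84 members (37.8%) rose and 77 (34.7%) fell, beside 29.6% higher and 35.8% lower of all tested genes and 34.8% higher and 45.1% lower of genes with at least 5 CPM. The median change of the members was 0.005 on the log2 scale and that of all tested genes -0.052. Scaling by library size alone raised the median of all genes by 0.227 and turned the members' counts into 119 higher and 45 lower, a share of 72.6% higher among those called in place of 52.2%. Of the members, 10 (4.5%) were called and over 2-fold higher and 17 (7.66%) over 2-fold lower, beside 10.5% and 12.1% of all tested genes and 7.06% and 9.19% of those with at least 5 CPM.

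The largest fall was that of Zfp185, which despite its name encodes a LIM domain protein that binds the actin cytoskeleton. It had 2.97 and 2.80 CPM in dKO MI-503, 1.24 and 0.953 CPM in dKO DMSO, 43.0 and 46.4 CPM in WT MI-503 and 23.3 and 23.6 CPM in WT DMSO libraries. Every dKO library was below every WT library. In DMSO it fell in dKO cells (log2 change -4.42, standard error 0.11, adjusted p = 7.39e-13), and so it did in MI-503 (log2 change -3.95, standard error 0.095, adjusted p = 6.75e-13). The largest rise was the opposite pattern in Zfp334, with 11.3 and 10.3 CPM in dKO MI-503, 7.61 and 7.29 CPM in dKO DMSO, 1.13 and 0.852 CPM in WT MI-503 and 0.602 and 0.512 CPM in WT DMSO libraries. It rose in dKO cells in DMSO (log2 change 3.73, standard error 0.16, adjusted p = 1.56e-10) and in MI-503 (log2 change 3.44, standard error 0.14, adjusted p = 1.25e-10). Zfp185 was a member through its WT libraries alone and Zfp334 through its dKO libraries alone, and the lowest library of Zfp334 held 31 counts. The promoters of these genes, from 250 bases before to 50 bases after the RefSeq start (GRCm38.p6), are shown as the starts of the transcripts with the widest differences between genotypes, with each CpG dinucleotide in capitals. That of Zfp185 lies at chrX:72987089-72987388 on the plus strand and holds 20 CpGs. That of Zfp334 lies at chr2:165388210-165388509 on the minus strand and holds 16.
Zfp185: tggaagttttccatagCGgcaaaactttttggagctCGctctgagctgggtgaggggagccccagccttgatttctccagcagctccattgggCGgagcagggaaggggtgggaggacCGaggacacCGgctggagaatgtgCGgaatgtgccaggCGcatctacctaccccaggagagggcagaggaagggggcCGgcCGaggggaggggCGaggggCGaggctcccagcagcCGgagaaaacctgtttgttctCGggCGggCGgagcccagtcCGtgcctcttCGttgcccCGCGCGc
Zfp334: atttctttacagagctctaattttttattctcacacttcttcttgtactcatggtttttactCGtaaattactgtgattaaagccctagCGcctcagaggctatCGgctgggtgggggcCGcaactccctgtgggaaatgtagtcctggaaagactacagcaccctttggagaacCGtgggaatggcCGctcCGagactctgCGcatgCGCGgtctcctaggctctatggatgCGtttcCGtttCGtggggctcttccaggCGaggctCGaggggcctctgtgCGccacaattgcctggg

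Other members with the largest falls in dKO against WT in DMSO were Zfp422, Zfp945, Zfp608 and Zfp57. Zfp422 had 1.33 and 1.09 CPM in dKO DMSO, against 6.27 and 6.60 CPM in WT DMSO libraries (log2 change -2.41, standard error 0.13, adjusted p = 1.42e-09). It was a member through its WT libraries alone. Zfp608, a paralog of Zfp609, had 15.2 and 15.8 CPM in dKO DMSO, against 72.5 and 70.4 CPM in WT DMSO libraries (log2 change -2.21, standard error 0.062, adjusted p = 2.45e-12). The level of Zfp608 in dKO DMSO lay close to that in WT MI-503 libraries, which was 13.7 and 14.1 CPM. Its paralog Zfp609 changed by 0.19 in the other direction (adjusted p = 0.00225). Zfp945, which lies in the large cluster on chromosome 17, had 6.02 and 5.66 CPM in dKO DMSO, against 28.8 and 32.4 CPM in WT DMSO libraries (log2 change -2.39, standard error 0.090, adjusted p = 3.92e-11). Besides Zfp334, the largest rises were those of Zfp523, Zfp358, Zfp414 and Zfp810. Zfp523 corresponds to human ZNF76, a paralog of the promoter activator ZNF143, and had 17.4 and 20.8 CPM in dKO DMSO, against 5.11 and 4.13 CPM in WT DMSO libraries (log2 change 2.04, standard error 0.13, adjusted p = 1.05e-08). Zfp358 had 9.92 and 11.3 CPM in dKO DMSO and 2.85 and 3.36 CPM in WT DMSO libraries (log2 change 1.78, standard error 0.11, adjusted p = 6.80e-09). Zfp414 rose by 1.73 (adjusted p = 4.77e-06) and Zfp810 by 1.47 (adjusted p = 1.67e-07) on the log2 scale. In each of these genes the 2 groups did not overlap, and in each of these rises the WT DMSO libraries, which stood apart in chaperone genes, were the lowest of the 8.

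**Figure D2:**
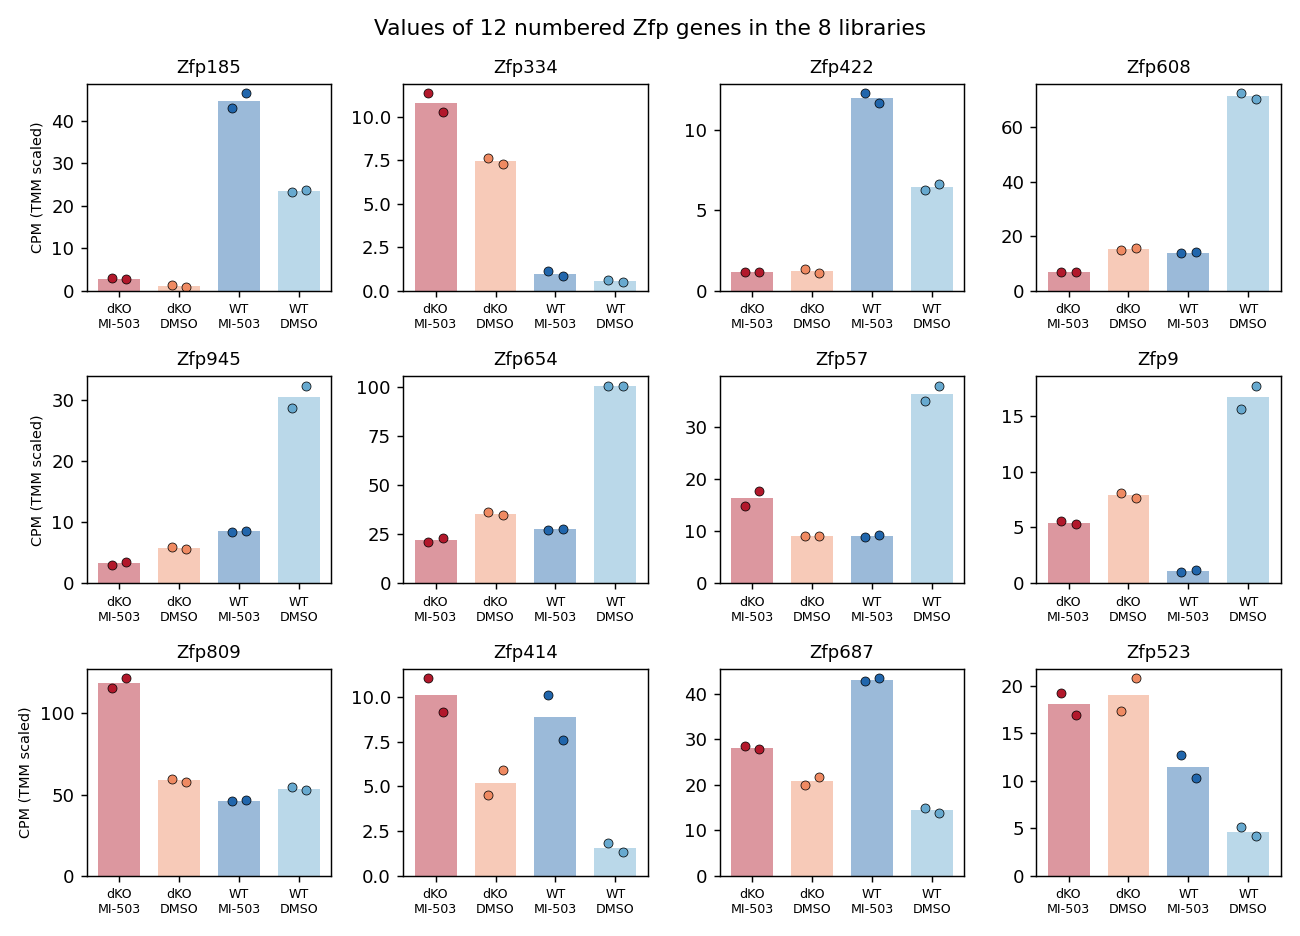
CPM (TMM scaled) of 12 numbered Zfp genes, with 1 point per library, bars at the mean of the 2 libraries and groups from left to right as dKO MI-503, dKO DMSO, WT MI-503 and WT DMSO. Zfp185 and Zfp422 were low in all 4 dKO libraries and Zfp334 in all 4 WT libraries, Zfp608, Zfp945 and Zfp654 were highest in WT DMSO, and Zfp809 was highest in dKO MI-503.

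With MI-503 in both genotypes, dKO cells still differed from WT cells. Here 74 members (33.3%) rose and 51 (23.0%) fell in dKO, beside 26.6% higher and 28.5% lower of all tested genes and 32.5% higher and 33.3% lower of those with at least 5 CPM. The median change was 0.048 for the members and 0.007 for all tested genes. A fit with no WT DMSO library gave 75 higher and 50 lower. The differences between dKO and WT in DMSO and in MI-503 rest on separate libraries: 41 members rose in both, which is 55.4% of those that rose in MI-503 and 48.8% of those that rose in DMSO, and 36 fell in both, which is 70.6% and 46.8%. Among all tested genes with at least 5 CPM the same shares were 58.7% and 54.9% for rises and 71.4% and 52.7% for falls. The genotype difference was called in opposite directions in 15 members (6.76%), beside 7.78% of all tested genes and 11.7% of those with at least 5 CPM. Zfp174, Zfp27, Zfp646, Zfp687, Zfp787 and Zfp960 were lower in dKO in MI-503 and higher in dKO in DMSO, and Zfp131, Zfp26, Zfp410, Zfp503, Zfp57, Zfp81, Zfp830, Zfp9 and Zfp942 the other way round. The call of Zfp503 in MI-503 was lost (adjusted p between 0.0513 and 0.441) without the first dKO MI-503 library or either WT MI-503 library.

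Zfp422 was again among the largest falls, with 1.19 and 1.18 CPM in dKO MI-503, against 12.2 and 11.7 CPM in WT MI-503 libraries (log2 change -3.33, standard error 0.13, adjusted p = 5.33e-11). Zfp512 had 8.70 and 9.35 CPM in dKO MI-503, against 28.3 and 27.6 CPM in WT MI-503 libraries (log2 change -1.63, standard error 0.090, adjusted p = 2.79e-09), and it fell in DMSO too (-1.45, adjusted p = 4.93e-09). Falls were smaller in Zfp945 (log2 change -1.40, adjusted p = 5.36e-08) and Zfp991 (log2 change -1.36, adjusted p = 7.94e-06). Among the rises, Zfp9 had 5.60 and 5.27 CPM in dKO MI-503, against 0.965 and 1.19 CPM in WT MI-503 libraries (log2 change 2.34, standard error 0.14, adjusted p = 5.90e-09). Zfp697 had 15.1 and 16.2 CPM in dKO MI-503, against 5.92 and 5.42 CPM in WT MI-503 libraries (log2 change 1.46, standard error 0.090, adjusted p = 9.28e-09). Zfp827, whose human counterpart recruits the NuRD complex to telomeres, had 28.5 and 28.6 CPM in dKO MI-503, against 12.9 and 12.3 CPM in WT MI-503 libraries (log2 change 1.18, standard error 0.063, adjusted p = 1.88e-09). Both were also higher in dKO in DMSO, by 1.22 for Zfp697 (adjusted p = 6.27e-08) and 0.87 for Zfp827 (adjusted p = 1.60e-08).

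More members fell than rose with MI-503. In dKO cells, 48 members (21.6%) rose and 95 (42.8%) fell, beside 29.1% higher and 26.5% lower of all tested genes and 35.1% higher and 36.5% lower of genes with at least 5 CPM. The median change was -0.094 for the members, 0.031 for all tested genes and -0.008 for those with at least 5 CPM. Scaling by library size alone gave 51 higher and 93 lower, and a fit with no WT DMSO library gave 47 and 95. In WT cells, 63 members (28.4%) rose and 107 (48.2%) fell with MI-503, beside 35.2% higher and 33.7% lower of all tested genes and 39.2% higher and 44.2% lower of genes with at least 5 CPM. There the median was -0.20 for the members, 0.031 for all tested genes and -0.041 for those with at least 5 CPM. With library size alone as the scaling, which raised the median of all genes by 0.174, 82 members rose and 85 fell in WT and the share of higher calls was 49.1% in place of 37.1%. The 28 numbered Zbtb genes with at least 5 CPM, a family that joins zinc fingers to a BTB domain, had 12 lower and 6 higher in dKO and 15 lower and 6 higher in WT cells. The MI-503 comparisons of the 2 genotypes share no library: 77 members fell in both, which is 81.1% of those that fell in dKO and 72.0% of those that fell in WT, and 32 rose in both, which is 66.7% and 50.8%. Among all tested genes with at least 5 CPM these shares were 80.2% and 66.3% for falls and 74.3% and 66.6% for rises. Members that fell with MI-503 had a longer median genomic span than members that rose, with 24.4 and 17.1 kb in dKO and 23.1 and 18.0 kb in WT. Among all tested genes with at least 5 CPM the medians were 31.1 and 21.3 kb in dKO and 29.7 and 20.8 kb in WT.

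The largest fall with MI-503 was that of Zfp9 in WT cells. In dKO cells it had 5.60 and 5.27 CPM with MI-503, against 8.11 and 7.65 CPM with DMSO (log2 change -0.54, standard error 0.11, adjusted p = 0.000637). In WT cells it had 0.965 and 1.19 CPM with MI-503, against 15.6 and 17.7 CPM with DMSO (log2 change -3.96, standard error 0.13, adjusted p = 7.18e-12). All 4 groups of Zfp9 were separate, in the order WT MI-503, dKO MI-503, dKO DMSO and WT DMSO from low to high. Zfp608 fell to 6.77 and 6.74 CPM in dKO MI-503, against 15.2 and 15.8 CPM in dKO DMSO libraries (log2 change -1.19, standard error 0.069, adjusted p = 6.59e-09). It fell to 13.7 and 14.1 CPM in WT MI-503, against 72.5 and 70.4 CPM in WT DMSO libraries (log2 change -2.36, standard error 0.063, adjusted p = 1.34e-12). Zfp654 fell in dKO, with 20.8 and 23.2 CPM with MI-503 and 36.4 and 34.6 CPM with DMSO (log2 change -0.69, standard error 0.064, adjusted p = 6.64e-07), and further in WT cells, with 27.4 and 27.6 CPM with MI-503 and 100.3 and 100.5 CPM with DMSO (log2 change -1.87, standard error 0.063, adjusted p = 1.04e-11). Zfp945 fell with a log2 change of -0.85 in dKO (adjusted p = 1.04e-05) and of -1.84 in WT cells (adjusted p = 2.59e-10). In these 4 genes both WT DMSO libraries, which stood apart in chaperone genes, were the highest of the 8.

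Falls of over 2-fold with MI-503 were called in 5 members (2.25%) in dKO and 28 (12.6%) in WT. The shares were 5.19% and 12.0% of all tested genes, and 3.72% and 11.4% of those with at least 5 CPM. Rises of over 2-fold were called in 4 members (1.8%) in dKO and 11 (4.95%) in WT, beside 8.89% and 16.4% of all tested genes. Like Zfp608, the members Zfp623, Zfp282, Zfp639 and Zfp943 fell by over 2-fold in both genotypes. Zfp623 had 11.9 and 11.3 CPM in dKO MI-503 and 29.5 and 27.7 CPM in dKO DMSO, and 10.7 and 12.0 CPM in WT MI-503 and 40.0 and 39.5 CPM in WT DMSO libraries. Its log2 fold change with MI-503 was -1.30 in dKO (adjusted p = 6.33e-09) and -1.81 in WT (adjusted p = 7.24e-11). Zfp282, whose human counterpart was found as a repressor of a retroviral promoter, had 37.4 and 34.6 CPM in dKO MI-503 and 82.7 and 89.0 CPM in dKO DMSO, and 30.5 and 29.7 CPM in WT MI-503 and 70.0 and 63.1 CPM in WT DMSO libraries. It fell with a log2 change of -1.25 in dKO (adjusted p = 2.94e-09) and of -1.14 in WT (adjusted p = 2.61e-09), with an interaction of -0.11 (SE 0.094). Zfp639, whose human counterpart lies in a region amplified in squamous cell carcinomas, fell with a log2 change of -1.11 in dKO (adjusted p = 6.92e-09) and of -1.13 in WT (adjusted p = 1.85e-09), with an interaction of 0.025 (SE 0.091). Zfp943 fell with a log2 change of -1.06 in dKO (adjusted p = 1.20e-07) and of -1.03 in WT (adjusted p = 5.96e-08), with an interaction of -0.024 (SE 0.12).

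Members that rose with MI-503 were led by Zfp185, Zfp467 and Zfp365 in dKO and by Zfp414, Zfp358, Zfp687 and Zfp467 in WT cells. Zfp185 rose in both genotypes, by 1.40 in dKO (adjusted p = 1.02e-06) and by 0.93 in WT cells (adjusted p = 9.15e-08), though its dKO MI-503 level stayed under every WT library. Zfp467, which favours adipocyte over osteoblast formation in mice, had 29.9 and 27.6 CPM in dKO MI-503 and 12.1 and 12.6 CPM in dKO DMSO (log2 change 1.22, standard error 0.073, adjusted p = 9.95e-09), and 32.3 and 30.5 CPM in WT MI-503 and 11.8 and 11.0 CPM in WT DMSO libraries (log2 change 1.46, standard error 0.075, adjusted p = 5.73e-10). Its interaction was -0.24 (SE 0.10, adjusted p = 0.0745, and 0.045 with RLE size factors). Zfp414 rose to 11.0 and 9.16 CPM in dKO MI-503, against 4.50 and 5.89 CPM in dKO DMSO libraries (log2 change 0.96, standard error 0.16, adjusted p = 0.000210). In WT cells it had 10.1 and 7.60 CPM with MI-503, against 1.82 and 1.31 CPM with DMSO (log2 change 2.50, standard error 0.20, adjusted p = 5.47e-08). Zfp358 rose by 0.87 in dKO (adjusted p = 2.72e-06) and by 2.02 in WT cells (adjusted p = 1.13e-09). Zfp687, which works in a complex with its paralog Zfp592, rose by 0.43 in dKO (adjusted p = 9.30e-05), and in WT cells it had 42.7 and 43.4 CPM with MI-503, against 15.0 and 13.8 CPM with DMSO (log2 change 1.58, standard error 0.070, adjusted p = 1.30e-10). Zfp592, named here after its values were seen, fell with a log2 change of -0.82 in dKO (adjusted p = 9.04e-08) and of -0.27 in WT cells (adjusted p = 0.00170). Zfp174, a SCAN domain protein, rose by 0.40 in dKO (adjusted p = 0.00341) and by 1.34 in WT cells (adjusted p = 3.65e-08).

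The interaction asks whether the change with MI-503 differed between the genotypes. The change in dKO minus that in WT was above 0 in 72 members (32.4%) and below 0 in 49 (22.1%), beside 24.8% higher and 22.0% lower of all tested genes and 35.5% higher and 29.1% lower of those with at least 5 CPM. This split depends on the settings: library size alone, for which the all-gene median shifted by -0.159, gave 45 higher and 77 lower (36.9% higher among those called, in place of 59.5%), and testing with no filter on low counts gave 53 higher and 69 lower (43.4%). Of the members called with MI-503 in both genotypes, 8 moved in opposite directions, which is 3.6% of the 222, beside 5.06% of all tested genes and 7.2% of those with at least 5 CPM. Zfp1, Zfp68 and Zfp746 fell in dKO and rose in WT cells, and Zfp367, Zfp57, Zfp704, Zfp809 and Zfp871 rose in dKO and fell in WT cells.

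**Figure D3:**
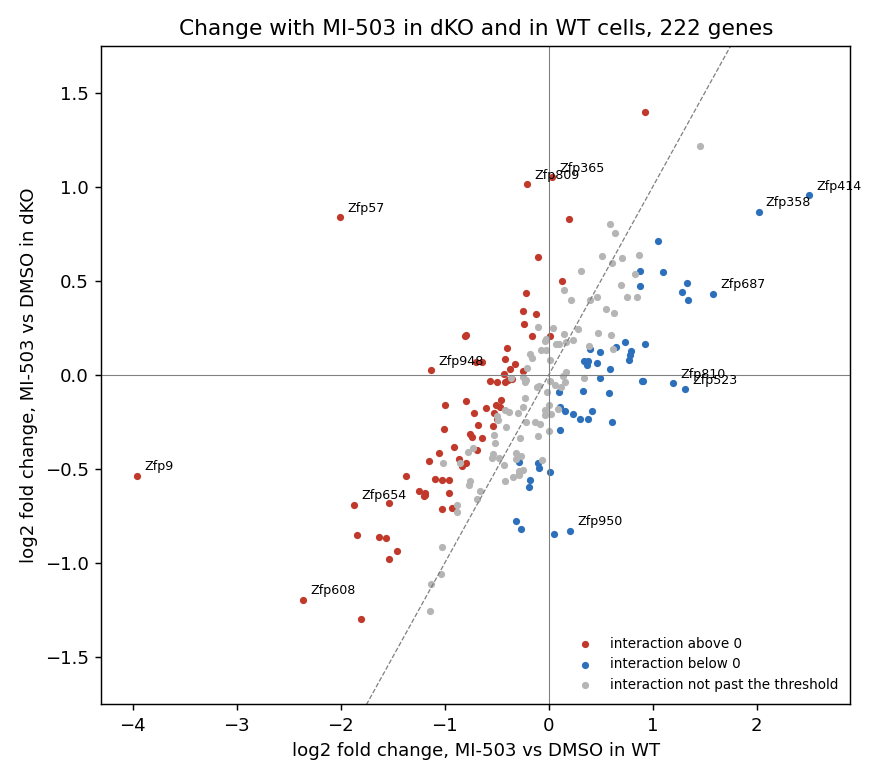
Log2 fold change with MI-503 in dKO cells (y axis) against that in WT cells (x axis) for the 222 genes, coloured by the interaction test, with a dashed line where both are equal. Zfp57 and Zfp809 lie above 0 in dKO and below 0 in WT, and Zfp9 lies at -0.54 in dKO and -3.96 in WT.

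Zfp57 and Zfp809 encode KRAB zinc finger proteins with well-known targets. Zfp57 keeps DNA methylation at imprinted control regions after fertilization, and Zfp809 starts the silencing of murine leukaemia viruses and related endogenous retroviruses in mouse embryonic cells. Zfp57 had 14.9 and 17.6 CPM in dKO MI-503 and 9.05 and 9.12 CPM in dKO DMSO, and 8.95 and 9.19 CPM in WT MI-503 and 35.0 and 37.9 CPM in WT DMSO libraries. It was highest in WT DMSO, with dKO MI-503 next, and dKO DMSO and WT MI-503 overlapped at the bottom. Between genotypes it was higher in dKO than in WT in MI-503 (log2 change 0.84, adjusted p = 2.48e-06) and lower in dKO in DMSO (adjusted p = 1.79e-10). With MI-503 it rose in dKO (log2 change 0.84, standard error 0.089, adjusted p = 2.34e-06) and fell in WT cells (log2 change -2.01, standard error 0.088, adjusted p = 1.24e-10), and the difference was 2.85 (SE 0.12, adjusted p = 2.04e-09). Zfp809 had 116 and 122 CPM in dKO MI-503 and 59.9 and 57.6 CPM in dKO DMSO, and 45.8 and 46.7 CPM in WT MI-503 and 54.4 and 52.6 CPM in WT DMSO libraries. Both dKO MI-503 libraries stood far above the other 6, which lay between 45.8 and 59.9 CPM. Zfp809 rose with MI-503 in dKO (log2 change 1.01, standard error 0.051, adjusted p = 1.81e-09) and fell slightly with MI-503 in WT cells (log2 change -0.21, adjusted p = 0.00272), a call lost with no filter on low counts (adjusted p = 0.0735) and with library size alone (adjusted p = 0.557). The interaction was 1.22 (SE 0.073, adjusted p = 2.69e-08). Zfp810, a neighbour of Zfp809 on chromosome 9, had a log2 change with MI-503 of -0.044 in dKO (adjusted p = 0.763) and rose in WT cells (1.20, adjusted p = 1.23e-06). The RefSeq promoters at the first listed start of these silencer genes are given because the genes moved in opposite directions in the 2 genotypes. These windows hold fewer CpGs, which are in capitals, than the median of 15 among members. RefSeq lists 3 starts for Zfp57 and 2 for Zfp809, and the others were not looked at. The first listed start of Zfp57 gives chr17:37003416-37003715 on the plus strand with 4 CpGs, and that of Zfp809 gives chr9:22225453-22225752 on the plus strand with 11. The window of Zfp57 lies inside the RefSeq span of the gene, chr17:37001163-37010729, and not at its first base, so its CpG count need not be that of its main promoter.
Zfp57: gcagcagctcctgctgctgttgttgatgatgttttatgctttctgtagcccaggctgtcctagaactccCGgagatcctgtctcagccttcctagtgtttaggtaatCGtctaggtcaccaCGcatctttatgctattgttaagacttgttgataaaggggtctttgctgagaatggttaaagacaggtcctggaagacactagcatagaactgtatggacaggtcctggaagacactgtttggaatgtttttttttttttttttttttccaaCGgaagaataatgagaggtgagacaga
Zfp809: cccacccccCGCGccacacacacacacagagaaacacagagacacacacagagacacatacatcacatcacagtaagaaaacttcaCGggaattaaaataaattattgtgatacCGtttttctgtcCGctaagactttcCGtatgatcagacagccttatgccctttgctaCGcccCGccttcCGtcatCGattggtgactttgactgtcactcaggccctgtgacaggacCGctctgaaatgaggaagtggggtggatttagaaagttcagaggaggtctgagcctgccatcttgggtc

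Among other members with a called interaction, Zfp9 had the widest, 3.42 (SE 0.17, adjusted p = 5.42e-09) and it fell in both genotypes. Zfp365, known in human cells for a part in genome stability, had 69.6 and 72.6 CPM in dKO MI-503 and 35.8 and 32.8 CPM in dKO DMSO, and 75.9 and 72.3 CPM in WT MI-503 and 70.4 and 74.5 CPM in WT DMSO libraries. Only the dKO DMSO libraries were low. Zfp365 rose with MI-503 in dKO (log2 change 1.05, standard error 0.060, adjusted p = 5.99e-09), while in WT the log2 fold change was 0.032 (SE 0.059, adjusted p = 0.651). Zfp523 was already higher in dKO with DMSO, where its log2 change with MI-503 was -0.074 (adjusted p = 0.623), and it rose in WT cells (1.32, adjusted p = 9.81e-07). Among genes of the chromosome 17 cluster, Zfp948 had a log2 change with MI-503 of 0.025 in dKO (adjusted p = 0.824) and fell in WT cells (-1.13, adjusted p = 5.04e-08), and it is named here after its values were seen.

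A list of 16 Zfp genes with known roles was looked at, of which Zfp423 and Zfp521 were no members, with means of 0.0931 and 0 CPM. Zfp36 encodes tristetraprolin, which marks mRNAs with AU-rich elements for decay. It had 23.6 and 27.6 CPM in dKO DMSO, against 38.4 and 40.3 CPM in WT DMSO libraries (log2 change -0.62, standard error 0.092, adjusted p = 3.97e-05). Zfp598 encodes a ubiquitin ligase that marks collided ribosomes. It had 83.6 and 96.3 CPM in dKO DMSO, against 52.6 and 46.2 CPM in WT DMSO libraries (log2 change 0.87, standard error 0.088, adjusted p = 1.04e-06), and it fell with MI-503 in dKO (log2 change -0.51, adjusted p = 0.000189), with 0.011 in WT cells (adjusted p = 0.920). Zfp207, the kinetochore and spindle protein BuGZ, was 1 of the 3 members with the highest mean CPM, with Zfp106 and Zfp91. With MI-503 it fell with a log2 change of -0.33 in dKO (adjusted p = 4.78e-05) and of -0.27 in WT cells (adjusted p = 0.000188). Zfp106, an RNA-binding protein needed by motor neurons, fell with a log2 change of -0.25 (adjusted p = 0.000724) and -0.22 (adjusted p = 0.00138), and Zfp91, a ubiquitin ligase of the noncanonical NF-κB pathway, with -0.43 (adjusted p = 4.23e-06) and -0.26 (adjusted p = 0.000272), in dKO and WT cells in this order. With library size alone the WT calls of Zfp207 (adjusted p = 0.0775), Zfp106 (0.404) and Zfp91 (0.112) were lost. Zfp91 was higher in dKO than in WT in DMSO (log2 change 0.60, adjusted p = 1.07e-07).

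Of the DNA-binding regulators on the list, Zfp148, Zfp281, Zfp292, Zfp703 and Zfp750 fell with MI-503 in both genotypes, and Zfp462 and Zfp143 rose in both. The call of Zfp292 in dKO was lost with library size alone (adjusted p = 0.051), and without the first dKO MI-503, dKO DMSO or WT MI-503 library (adjusted p = 0.189, 0.364 and 0.0553). That of Zfp750 in WT cells was lost with library size alone (adjusted p = 0.197) and without the first WT MI-503 library (adjusted p = 0.0517). Zfp148 and Zfp281 are paralogs that bind GC-rich promoters, and the second is known for its part in pluripotency. Zfp148 had 82.5 and 87.8 CPM in dKO MI-503 and 143 and 135 CPM in dKO DMSO (log2 change -0.71, standard error 0.049, adjusted p = 4.09e-08), and 99.6 and 100.2 CPM in WT MI-503 and 192 and 188 CPM in WT DMSO libraries (log2 change -0.93, standard error 0.049, adjusted p = 8.44e-10). Zfp281 had 32.2 and 32.9 CPM in dKO MI-503 and 39.2 and 40.2 CPM in dKO DMSO (log2 change -0.29, standard error 0.055, adjusted p = 0.000502), and 31.1 and 30.4 CPM in WT MI-503 and 61.9 and 61.6 CPM in WT DMSO libraries (log2 change -1.01, standard error 0.055, adjusted p = 1.07e-09). The WT DMSO libraries were the highest for both genes. Zfp217, an oncogene of breast cancer that works with corepressors, fell in dKO against WT in DMSO, with 39.7 and 42.1 CPM in dKO and 105 and 104 CPM in WT (log2 change -1.35, standard error 0.052, adjusted p = 4.93e-11). Its log2 change with MI-503 was 0.070 in dKO (adjusted p = 0.283), and it fell in WT cells (-0.69, adjusted p = 2.48e-08). Zfp703 and Zfp503 encode corepressors of the NET family. Zfp703 had 30.6 and 25.1 CPM in dKO MI-503 and 40.4 and 48.7 CPM in dKO DMSO (log2 change -0.68, standard error 0.10, adjusted p = 6.08e-05), and 16.5 and 14.6 CPM in WT MI-503 and 46.4 and 44.3 CPM in WT DMSO libraries (log2 change -1.54, standard error 0.11, adjusted p = 1.26e-08). Zfp503 had a log2 change with MI-503 of 0.21 in dKO (adjusted p = 0.228) and fell in WT cells (-0.80, adjusted p = 0.000214). Without the second dKO MI-503 library the dKO value was 0.46 and called (adjusted p = 0.00323).

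Zfp750, a driver of terminal differentiation in epidermis downstream of p63, was lower in dKO cells under both treatments. It had 20.9 and 22.5 CPM in dKO MI-503 and 34.8 and 38.0 CPM in WT MI-503 (log2 change -0.75, standard error 0.074, adjusted p = 1.32e-06), and 30.3 and 32.2 CPM in dKO DMSO and 42.0 and 46.6 CPM in WT DMSO libraries (log2 change -0.50, standard error 0.072, adjusted p = 3.13e-05). Zfp462, which protects heterochromatin in mouse embryonic stem cells, rose in dKO against WT in MI-503 (0.57, adjusted p = 1.06e-05) and in DMSO (0.57, adjusted p = 8.57e-06), and it rose with MI-503 by 0.40 in dKO and 0.40 in WT cells (adjusted p = 0.000227 and 0.000211). Its interaction was -0.0001 (SE 0.089). Zfp292, whose human counterpart is mutated in a neurodevelopmental disorder, fell with MI-503 in WT (log2 change -0.46, adjusted p = 1.56e-05) and in dKO against WT in DMSO (-0.39, adjusted p = 9.38e-05). Zfp143 encodes an activator that binds many promoters near their start. It had 39.4 and 39.1 CPM in dKO MI-503 and 35.6 and 33.4 CPM in dKO DMSO, and 45.8 and 47.5 CPM in WT MI-503 and 38.7 and 40.6 CPM in WT DMSO libraries. In WT cells it rose with MI-503 (log2 change 0.23, standard error 0.059, adjusted p = 0.00289). In dKO cells the rise (0.19, adjusted p = 0.0162) was no longer called without the second dKO DMSO library or either dKO MI-503 library, with adjusted p between 0.0552 and 0.121, nor with no filter on low counts (adjusted p = 0.0691).

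RefSeq gave GRCm38.p6 positions for 221 of the 222 members, with 47 on chromosome 7 and 32 on chromosome 17. Runs of at least 4 numbered Zfp genes of the count table with successive starts within 500 kb formed 22 clusters, which held 101 members. In the clusters, 36 of 101 members fell and 25 rose with MI-503 in dKO, and 45 fell and 25 rose in WT. Outside them, 59 of 121 fell and 23 rose in dKO, and 62 fell and 38 rose in WT. The counts per cluster below stand beside the shares of all members, which were 42.8% lower and 21.6% higher in dKO and 48.2% lower and 28.4% higher in WT, and were not tested. The reads of genes in a cluster can be hard to assign where copies are near-identical, and the way the counts were made is not stated, so single values there, and those of genes that overlap others, are less certain.

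The largest cluster, 17a at chr17:21008941-23599755, held 16 members. Of them, 10 fell and 3 rose with MI-503 in dKO (median log2 fold change -0.40), and 11 fell and 2 rose in WT (median -0.46). The neighbouring cluster 17b at chr17:32765496-33631716 had 9 members with medians of -0.034 in dKO and -0.039 in WT, and its widest change was that of Zfp414. Cluster 9a at chr9:20345136-20605404, with Zfp560, Zfp26, Zfp426, Zfp266 and Zfp846, had 3 of 5 members lower in dKO (median -0.21) and 4 of 5 lower in WT (median -0.76), and none higher. In 13a at chr13:66670274-67827000, 1 of 5 members fell in dKO and 3 fell in WT, with medians of -0.20 and -0.29. A pair of clusters on chromosome 7 ran the other way. Of the 8 members in 7i at chr7:127233061-127885996, 6 rose and 1 fell with MI-503 in both genotypes, with medians of 0.41 in dKO and 0.44 in WT. Of the 6 in 7e at chr7:24081877-25227876, 3 rose in dKO (median 0.33) and 4 rose in WT (median 0.47), and none fell. The 8 members of 7g at chr7:29768552-30169775 were mixed, with 4 lower and none higher in dKO and 3 lower and 3 higher in WT. Zfp568 in that cluster, a KRAB protein that represses a placental transcript of Igf2, fell with a log2 change of -0.87 in dKO (adjusted p = 9.63e-08) and -1.56 in WT cells (adjusted p = 6.11e-11) and is named here after its values were seen. In 6a at chr6:47815536-48621548, Zfp282 fell and Zfp467 rose by similar amounts, and the median of its 7 members was -0.13 in dKO and -0.095 in WT. The 5 members of 7f at chr7:27731409-28379228 included Zfp36 and had medians of 0.091 in dKO and -0.12 in WT. By genotype, 4 of the 5 members of 7f fell in dKO against WT in DMSO and none rose, while in 6a 4 of 7 rose and none fell. In that comparison 34.7% of all members fell and 37.8% rose, beside 35.8% and 29.6% of all tested genes. In MI-503, 1 member of 7f fell in dKO and none rose, and in 6a 5 rose and none fell. Of all members 23.0% fell and 33.3% rose there, beside 28.5% and 26.6% of all tested genes.

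**Figure D4:**
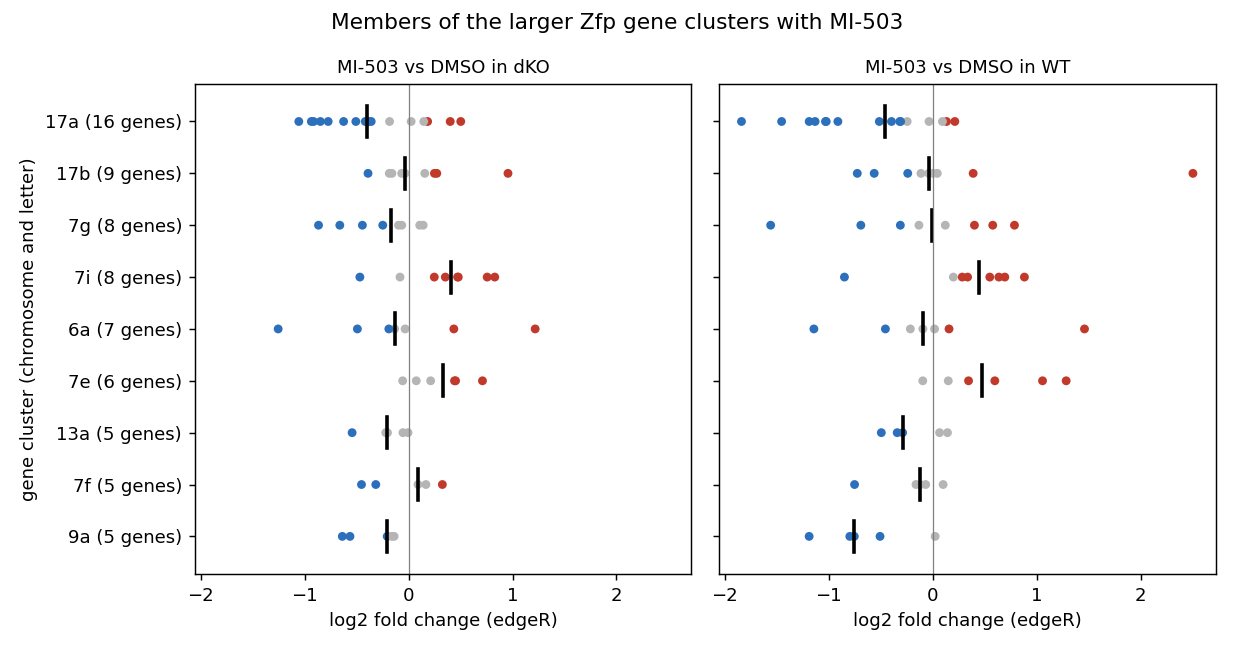
Log2 fold change with MI-503 in dKO (left) and in WT cells (right) of the members in the 9 clusters with at least 5 members, 1 point per gene, red for higher, blue for lower and grey for not past the threshold, with a black bar at the cluster's median. Medians were lowest in 17a and 9a and highest in 7i and 7e in WT cells.

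RefSeq promoters of the same 300-base window were found for 178 members. They held a median of 15 CpGs, against 22 in the 7991 promoters of genes with at least 5 CPM and 7 in all 27025 promoters. The median was 16 among members that fell and 17 among members that rose with MI-503 in WT. Motifs, none of which contains another, were searched on both strands as exact letters. The GC box, GGGGCGG, stood in 27.5% of members' promoters, in 47.2% of those of genes with at least 5 CPM and in 23.4% of all. The ETS motif, CCGGAAG, stood in 19.7%, 20.8% and 9.12% of these sets in that order. For the YY1 motif, AAGATGGCG, the shares were 3.93%, 3.78% and 1.49%, and for the NRF1 motif, GCGCATGCG, they were 3.93%, 4.2% and 1.81%. The TATA box, TATAAA, had shares of 6.18%, 6.31% and 14.2%. The E box, CACGTG, had shares of 9.55%, 11.1% and 7.24%. The CCAAT box stood in 48.9% of members' promoters, in 39.0% of those of genes with at least 5 CPM and in 37.9% of all. The core ACTACAATT of the ZNF143 motif stood in 6 of the members' promoters (3.37%), against 0.876% of genes with at least 5 CPM and 0.433% of all promoters. These matches are descriptions of letters in this window, with no test. The 6 windows are shown with the core in capitals and up to 10 bases on each side, on the strand that carries the core.
Zfp1: gaggtgtaggACTACAATTcccataatgc
Zfp111: acttACTACAATTgtctttcatg
Zfp180: gctcaatggaACTACAATTcccagaactc
Zfp692: actaaggctaACTACAATTcccggcaggc
Zfp93: tggcgttggaACTACAATTcccagaattc
Zfp933: tttccaaagaACTACAATTcccagcattc

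These windows lie at chr8:111643410-111643438, chr7:24208377-24208399, chr7:24081867-24081895, chr11:58307011-58307039, chr7:24270339-24270367 and chr4:147848432-147848460 in that order. Their centres stand at -19, -242, -16, -44, -65 and -28 bases from the listed start, and that of Zfp111 is the farthest. Zfp111, Zfp180 and Zfp93 lie in cluster 7e. Of these 6 genes, Zfp692 (0.42) and Zfp93 (0.44) rose and Zfp1 (-0.24) and Zfp933 (-0.44) fell with MI-503 in dKO, on the log2 scale (adjusted p = 0.000272, 0.00171, 0.0330 and 0.00291). In WT cells, Zfp1, Zfp180, Zfp692 and Zfp93 rose, by 0.31, 0.34, 0.46 and 1.28 in that order (adjusted p = 0.00962, 0.000368, 8.07e-05 and 7.36e-08), and Zfp933 fell (-0.47, adjusted p = 0.00149).

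KRAB proteins act through partners, and 34 genes of corepressors and silencing factors were looked at beside the members. In dKO against WT in DMSO, 15 rose and 12 fell, beside 34.8% and 45.1% of genes with at least 5 CPM, and in MI-503 14 rose and 7 fell, beside 32.5% and 33.3%. With MI-503, 14 rose and 9 fell in dKO (median -0.020), beside 35.1% and 36.5%, and 15 rose and 17 fell in WT (median -0.15), beside 39.2% and 44.2%. These counts were not tested. Trim28, the corepressor that KRAB domains bind, had 280.2 and 269.7 CPM in dKO MI-503 and 201 and 202 CPM in dKO DMSO (log2 change 0.45, standard error 0.055, adjusted p = 1.04e-05), and 279 and 264 CPM in WT MI-503 and 296 and 265 CPM in WT DMSO libraries (log2 change -0.049, adjusted p = 0.446). Only the dKO DMSO libraries were low (log2 change -0.48, standard error 0.055, adjusted p = 3.79e-06 against WT). Setdb1, the H3K9 methyltransferase that TRIM28 brings in, rose with MI-503 by 0.44 in dKO (adjusted p = 3.16e-05) and by 0.84 in WT cells (adjusted p = 2.41e-08). The H3K9 methyltransferases Suv39h1 and Ehmt2 rose too, by 0.88 and 0.40 in dKO and by 1.17 and 1.34 in WT cells (adjusted p = 1.63e-08, 0.00246, 3.39e-10 and 2.34e-08). Suv39h2 fell, with a log2 change of -0.41 in dKO (adjusted p = 0.000465) and -0.55 in WT cells (adjusted p = 3.29e-05).

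With MI-503 the widest falls among these 34 genes were in Trim33 and Morc2a in dKO and in Trim33 and Tasor in WT cells. Trim33, a relative of Trim28, had 87.3 and 91.0 CPM in dKO MI-503 and 205 and 196 CPM in dKO DMSO (log2 change -1.17, standard error 0.046, adjusted p = 1.78e-10), and 105 and 105 CPM in WT MI-503 and 355 and 359.8 CPM in WT DMSO libraries (log2 change -1.77, standard error 0.046, adjusted p = 1.10e-12). Morc2a, which encodes a chromatin ATPase that works with the HUSH complex, had 49.8 and 51.2 CPM in dKO MI-503 and 100.9 and 97.8 CPM in dKO DMSO (log2 change -0.98, standard error 0.047, adjusted p = 1.15e-09), and in WT cells it fell with a log2 change of -0.60 (adjusted p = 3.82e-08). Tasor, Mphosph8 and Pphln1 encode the HUSH complex, which spreads H3K9 methylation over mobile elements. Tasor, listed under its older symbol Fam208a, had 46.1 and 48.0 CPM in dKO MI-503 and 83.9 and 79.3 CPM in dKO DMSO (log2 change -0.79, standard error 0.056, adjusted p = 4.40e-08), and 31.2 and 30.7 CPM in WT MI-503 and 97.3 and 104 CPM in WT DMSO libraries (log2 change -1.70, standard error 0.058, adjusted p = 1.04e-11). In dKO cells the log2 changes of Mphosph8 and Pphln1 were -0.0048 and -0.077 (adjusted p = 0.951 and 0.209), and in WT cells both fell, with -0.57 and -0.85 (adjusted p = 4.27e-07 and 2.40e-09). The interaction of all 3 HUSH genes was above 0, at 0.91 for Tasor, 0.56 for Mphosph8 and 0.77 for Pphln1 (adjusted p = 7.75e-07, 3.88e-05 and 1.10e-06). That of Morc2a was below 0, at -0.37 (adjusted p = 0.000371). Of the 34 genes, 15 were called above 0 and 10 below, beside 35.5% and 29.1% of genes with at least 5 CPM. Each interaction also rests on the WT DMSO libraries, which stood apart in chaperone genes.

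**Figure D5:**
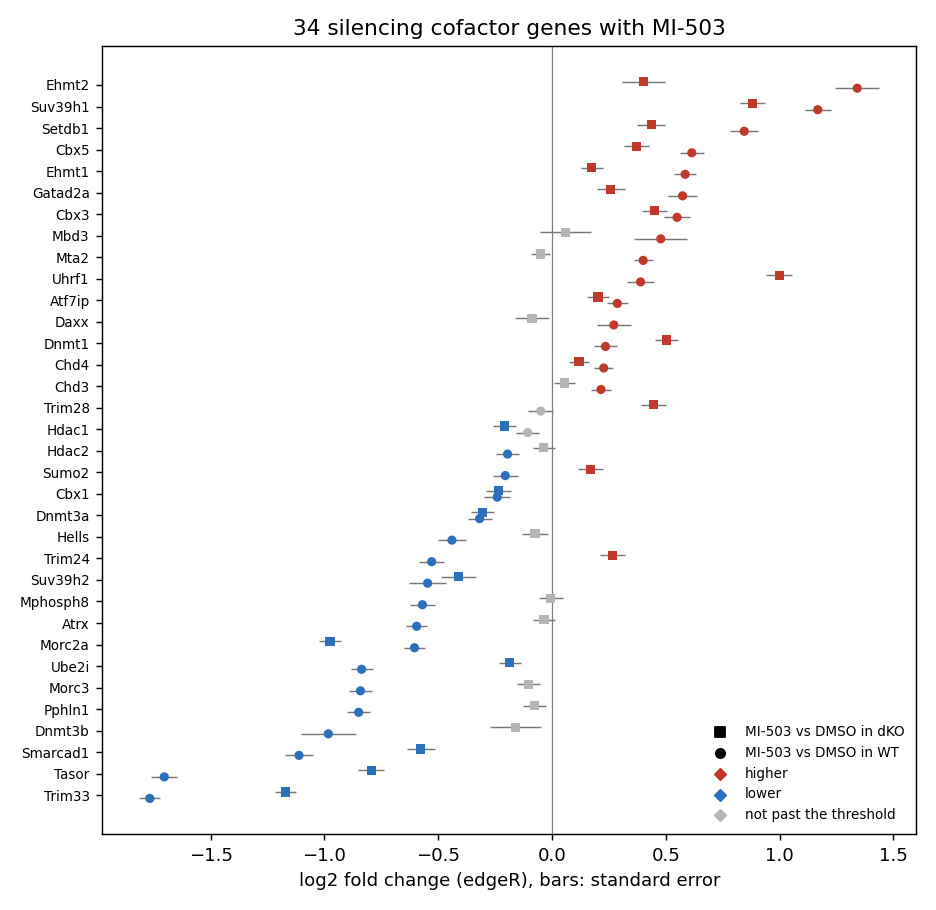
Log2 fold change with MI-503 of 34 silencing cofactor genes, with squares for dKO and circles for WT cells, bars for the standard error and colour for the call. Trim33 and Tasor fell most in WT cells, at -1.77 and -1.70, and Ehmt2 and Suv39h1 rose most there, at 1.34 and 1.17.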

How the data were processed

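Raw read counts per Ensembl gene were deposited by the authors for 8 polyA RNA-seq libraries, with no normalization. Per the submitters' processing notes, the tools of the series include STAR, and its builds are GRCm38 and mm10. The sources used here do not say how reads were counted or whether by strand, so genes and their antisense partners cannot be told apart. A row with no identifier was left out, and 53274 of 53465 identifiers had a symbol. Groups follow the labelled genotype and treatment. The members and lists were chosen with earlier results of these data known. R 4.3.3 with edgeR 4.0.16 fitted all 8 libraries by quasi-likelihood, each group having 1 mean (4 residual degrees of freedom). TMM factors ran from 0.892 in WT DMSO to 1.06, filterByExpr (minimum count 10) kept 16921 genes, and Benjamini-Hochberg adjustment over them had a threshold of 0.05. Tests are two-sided, and standard errors (SE) come from dividing the absolute log2 change by the root of the F statistic. The smallest p of an exact permutation test is 0.33 with 2 libraries a group. The fit was tested on simulated counts.

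Members named with values are, per comparison, the 5 largest changes in each direction among called members whose groups do not overlap (in the interaction with no such condition), the members of the list of 16 roles, the 3 highest means, and the 3 genes on each side of the 5 CPM limit. Of the cofactor list only some genes are given with values in the text, and they were picked with the values known. Others, such as Mta2, Chd3, Morc3 and Smarcad1, were also called in some comparisons. Zfp592, Zfp609, Zfp568, Zfp948, the genes with opposite calls and those with a ZNF143 core were named after their values were seen. Alternatives were RLE size factors, library size alone, no filter on low counts or a stricter one, a fit to only the groups compared, DESeq2 1.42.0, each library left out, a replicate block, and limits of 10 and 2 CPM, and, chosen after seeing the data, a crossed block and a fit with no WT DMSO library. Promoters are those of RefSeq (GRCm38.p6), matched by symbol. Protein classes were not analysed here.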

Additional observations from a re-analysis of the deposited data

Results flagged for a closer look

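The change with MI-503 differed between the genotypes in 72 members where the change in dKO minus that in WT was above 0 and in 49 where it was below 0, by the edgeR interaction test at an adjusted p under 0.05. These were 32.4% and 22.1% of the members. Of all tested genes 24.8% and 22.0% were called so, and of those with at least 5 CPM 35.5% and 29.1%. With library size alone 45 members were above 0 and 77 below, and with no filter on low counts 53 and 69. Among the named members above 0, the difference on the log2 scale was 3.42 for Zfp9, 2.85 for Zfp57, 1.22 for Zfp809, 1.18 for Zfp654, 1.17 for Zfp608, 1.02 for Zfp365 and 1.01 for Zfp503. It was 0.99 for Zfp945, 0.86 for Zfp703, 0.76 for Zfp217, 0.72 for Zfp281, 0.51 for Zfp623 and 0.31 for Zfp827. Below 0 stood a difference of -1.55 for Zfp414, -1.39 for Zfp523, -1.24 for Zfp810, -1.15 for Zfp358, -1.15 for Zfp687, -0.95 for Zfp174, -0.92 for Zfp422 and -0.52 for Zfp598. Calls of smaller differences depended on single libraries or settings. The call of Zfp827 was lost with library size alone as the scaling (0.15, adjusted p = 0.162) and with no filter on low counts (0.22, adjusted p = 0.16). The other small differences were 0.59 for Zfp931, 0.47 for Zfp185, 0.44 for Zfp36, 0.29 for Zfp292 and 0.22 for Zfp148. Without the first dKO MI-503 library the adjusted p was 0.0804 for Zfp185 and 0.0599 for Zfp36, and without the second it was 0.0555 for Zfp292, 0.0944 for Zfp148 and 0.0768 for Zfp931. Without the second dKO DMSO library it was 0.22 for Zfp185, 0.063 for Zfp292, 0.0642 for Zfp148 and 0.0816 for Zfp931. Without the first WT MI-503 library it was 0.0829 for Zfp185, 0.0698 for Zfp148 and 0.0843 for Zfp931, and without the second it was 0.055 for Zfp148. Without the first WT DMSO library it was 0.0643 for Zfp148, and without the second it was 0.0516 for Zfp185. With library size alone the adjusted p was 0.5 for Zfp148, 0.122 for Zfp185, 0.229 for Zfp292, 0.0951 for Zfp36 and 0.0764 for Zfp931. With no filter on low counts it was 0.299 for Zfp148, 0.0964 for Zfp185 and 0.0937 for Zfp292, and with DESeq2 it was 0.0638 for Zfp148. Each interaction also rests on the WT DMSO libraries, where 15 chaperone genes took 3.68% and 3.95% of counts, and the part of this in the differences was not tested. No group had enough libraries for a check of single libraries against their group.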

How the results depend on the processing

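With library size alone as the scaling, members lower in dKO against WT in DMSO numbered 45, and in the interaction 45 members were higher and 77 lower. A limit of 10 CPM for membership left 160 genes, of which 40 rose with MI-503 in WT, and the other counts stayed within 1.5 times. Zfp106 in dKO against WT in DMSO turned to 0.14 (adjusted p = 0.0174) and Zfp143 to 0.028 (adjusted p = 0.68) under library size alone, for which the all-gene median shifted by 0.227. Leaving out each library gave 71 to 84 members higher and 66 to 80 lower in dKO against WT in DMSO, 61 to 77 and 41 to 53 in MI-503, 43 to 49 and 78 to 95 with MI-503 in dKO, 54 to 63 and 97 to 109 with MI-503 in WT, and 55 to 76 and 36 to 49 in the interaction. The replicate numbers of the labels were not taken as pairs, since the correlations of deviations of same-numbered libraries differed in sign. They were between 0.136 and 0.176 among the groups other than dKO DMSO. Each of these groups correlated with dKO DMSO at between -0.332 and -0.21. Whether libraries share a batch across groups was not tested, and the labels do not say. With a replicate block the counts were 80 higher and 74 lower in dKO against WT in DMSO, 73 and 48 in MI-503, 46 and 93 with MI-503 in dKO, 62 and 104 with MI-503 in WT, and 71 and 45 in the interaction. With the dKO DMSO numbers crossed in the block, a choice made after seeing the data, they were 88 and 87, 89 and 59, 56 and 107, 68 and 115, and 88 and 69. Of 3321 alternative values of the named members, 3181 kept their direction and their side of the threshold, 81 lost a call and 57 gained one. With 2 libraries a group, small changes of members near 5 CPM are the least certain.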
